A study of Homo sapiens with 12 samples.

Results

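The comparison described here is the line-specific part of the response to erlotinib, that is, the change in PC9 set against the change in HCC827. All 12 of the 12 arrays of the series entered it, by the rule that the difference (PC9 erlotinib minus PC9 DMSO) minus (HCC827 erlotinib minus HCC827 DMSO) was tested for every gene with a probe set of 1 gene symbol. PC9 and HCC827 are established lines of human lung adenocarcinoma whose EGFR gene carries an activating mutation. The 4 groups were PC9 in DMSO (the solvent), PC9 in 2 µM erlotinib (an inhibitor of the EGFR kinase), HCC827 in DMSO and HCC827 in 2 µM erlotinib. Each group held 3 arrays, and all cells were collected on day 8, in medium with 10% fetal bovine serum renewed after 4 days. Per the labels, fewer cells were plated for DMSO, in 10 cm dishes, than for erlotinib, in 2 flasks of 150 cm, whereas the series text gives flasks of 150 cm for all cells. Plating therefore cannot be told apart from the drug within a line, and it was labelled alike in both lines. The labels name no separate cultures, so the p-values measure only the spread between these samples, which may be technical.

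EGFR signals through the RAS and ERK cascade and through phosphatidylinositol kinase and AKT, and in cells addicted to a mutant receptor a kinase inhibitor lowers both. Cells that survive the first days of drug are called drug-tolerant. They divide little and often turn on genes of other programs, such as interferon, NF-kB and YAP signalling or contractile and matrix genes. An interaction asks of each gene whether the drug moved it unequally in the lines. It does not compare the starting levels, but a line in which a gene starts near background cannot show a fall.

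Signals are linear array intensities, scaled by the submitters' software to a trimmed mean of 150 on every array. Changes are differences of mean log2(signal + 8), with standard errors after ±, and the constant of 8 understates changes of dim genes. A gene was tested where at least 1 group mean reached 13, the median of the table; a group below that is called under the filter or near background. Median signals ran from 11.1 to 14.5, and replicate arrays had a Pearson's r over genes between 0.993 and 0.997. The markers of lung carcinoma epithelium were bright in every group, with all 6 above the filter and summed signals from 13165 to 17564. The 4 leukocyte markers measured lay under the filter in every group, with sums of at most 22.9. Endothelial markers summed to 895 to 989 in PC9 DMSO, 654 to 706 in PC9 erlotinib and at most 20.2 in HCC827. PECAM1 and CDH5 made up the PC9 signal, and VWF, KDR and TEK were under the filter. Fibroblast markers went from sums of 78.8 to 110 to sums of 384 to 470 in PC9 and from 155 to 182 to sums of 620 to 684 in HCC827. LUM and COL1A1 carried that signal, and DCN, COL1A2, PDGFRB and THY1 were under the filter. In such bulk RNA, fewer cells of a kind and less RNA per cell cannot be told apart. HCC827 erlotinib replicates 2 and 3 stood apart in the ratio of 3' to 5' actin signal, a measure of RNA or amplification quality, at 2.99 and 3.64 against 2.05 to 2.53 on the other arrays. PC9 DMSO replicate 2 stood apart for a few mesenchymal genes, with SPARC at a signal of 69.6 against 1.1 and 1.3 on its companions.

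Erlotinib moved a large part of the transcriptome unequally in the lines. Of 13185 genes tested, 5954 (45.2%) differed in their change, that is, passed limma's test of the difference with a Benjamini-Hochberg adjusted p under 0.05. The PC9 change was the more positive for 2799 (21.2%) and the more negative for 3155 (23.9%). A difference of at least 2-fold was called for 1349 genes (10.2%), 762 with PC9 more positive and 587 with PC9 more negative. The median difference of all genes was -0.02 on the log2 scale, the median size of a called difference was 0.62 and the median standard error was 0.14. The changes themselves were larger in PC9, with a median size of 0.35 log2 units against 0.25 in HCC827. PC9 had 8525 called genes (64.7%), with 36.3% of all genes up and 28.3% down, and HCC827 had 6813 (51.7%), with 32.2% up and 19.5% down. Across genes, which are not independent, the changes of the lines correlated with r = 0.489 over 13185 genes; the lines share no array.

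Among the 5954 genes, 708 (5.37% of those tested) had moved in opposite directions, 303 (2.3%) up in PC9 and down in HCC827 and 405 (3.07%) the reverse. A further 1654 (12.5%) had moved the same way in both lines by an unequal amount. Of these, 798 rose and 487 fell more in PC9, and 291 rose and 78 fell more in HCC827. In 2367 genes (18%) PC9 alone passed the test for its own change, with 1173 up and 1194 down, and in 1118 (8.48%) HCC827 alone did, with 722 up and 396 down. The remaining 107 passed in neither line by itself. Missing the threshold does not show that a gene stood still. In 1087 of the 1173 and 1161 of the 1194 PC9 genes, and in 667 of the 722 and 368 of the 396 HCC827 genes, the 95% interval of the other line's change lay within 1.5-fold either way. In the other line 229 and 118 of the PC9 genes, and 196 and 92 of the HCC827 genes, were under a signal of 13 in both groups, so a fall there could not have been seen. The classes were sorted on the same values that were tested and are descriptions. With a covariate for the actin ratio 4476 genes were called, of which 398 were opposite, 844 unequal and 656 in HCC827 alone. Without HCC827 erlotinib replicates 2 and 3 the numbers were 4196, 387, 889 and 632. Of the 708 opposite genes 366 kept their class in the first of these fits and 365 in the second, while 691 and 688 kept the call of an unequal change in the same direction.

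**Figure D1:**
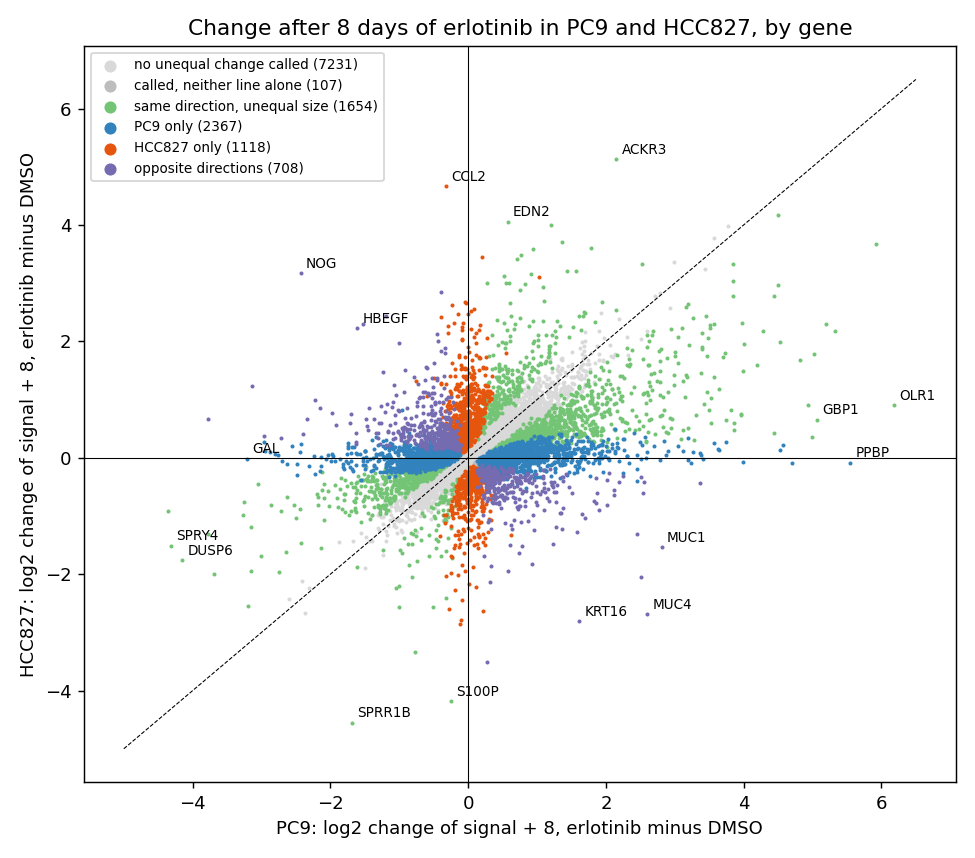
Each point is 1 of 13185 genes, with the log2 change (erlotinib minus DMSO, 3 arrays per group) of PC9 on the x axis and of HCC827 on the y axis; colours give the classes and the dashed line marks equal change. The 708 opposite genes lie above left and below right of the origin, with NOG and HBEGF at one end and MUC4, KRT16 and MUC1 at the other.

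Among genes that rose in PC9 and fell in HCC827, membrane mucins gave some of the largest contrasts. MUC4, a membrane mucin that can bind ERBB2, read 34.7, 37.5 and 39.8 in PC9 DMSO and 251, 276 and 273 in PC9 erlotinib. In HCC827 the same gene read 129.7, 122 and 121 in DMSO and 9.8, 10.4 and 18.3 in erlotinib. All erlotinib arrays lay above the DMSO arrays in PC9 and below them in HCC827, and the order of the lines was exchanged. The log2 change was 2.60 ± 0.13 in PC9 and -2.69 ± 0.13 in HCC827, a difference of 5.29 ± 0.18 (adjusted p = 4.27e-12, limma). MUC1, another membrane mucin, had PC9 signals of 66.8, 48.5 and 61.8 in DMSO and 501, 389.8 and 494 in erlotinib. Its HCC827 signals were 640.5, 594 and 628 in DMSO and 221, 224 and 182 in erlotinib. The lowest of the 4 groups was thus PC9 DMSO, and no arrays overlapped within a line. The difference between the lines' changes was 4.35 ± 0.17 (adjusted p = 1.22e-11).

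KRT16, a keratin of stressed and stratified epithelium, rose in PC9 from 116, 77.2 and 96.5 to 277, 354 and 299. In HCC827 it fell from 170.5, 158 and 138 to 13.6, 21.8 and 11.8. The DMSO levels of the lines were of a similar size, and their changes differed by 4.42 ± 0.22 log2 units (adjusted p = 2.45e-10). KRT16 shares much of its sequence with other type I keratins, so its probe set may read them too, which was not tested. TFPI2, an inhibitor of serine proteases of the matrix, rose in PC9 from 516, 613 and 523 to 3038, 3188 and 2900.2. In HCC827 it went from 362, 353 and 346 to 132, 128 and 152. PC9 was the brighter line at the start and more so with the drug, with a difference of 3.77 ± 0.11 (adjusted p = 7.92e-13). RGS7, which speeds the shut-off of G protein signals, rose in PC9 from 3.7, 6.7 and 3.4 to 72.6, 59.1 and 58.1 and fell in HCC827 from 95.8, 99.1 and 88.5 to 12.7, 18.7 and 19.6, a difference of 4.55 ± 0.20. The basement membrane chain COL4A6 and the long noncoding RNA LINC01116 also crossed, with differences of 2.72 ± 0.14 and 2.60 ± 0.17.

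The reverse pattern was largest in NOG, which encodes noggin, a secreted antagonist of bone morphogenetic proteins. NOG read 1364, 1710.3 and 1732 in PC9 DMSO and 288, 267 and 312 in PC9 erlotinib. HCC827 went from 58.8, 69.8 and 59.9 to 621, 594 and 678. Noggin was high in PC9 and low in HCC827 before the drug, and the order was reversed after it. It fell by 2.43 ± 0.10 in PC9 and rose by 3.17 ± 0.10 in HCC827, with a difference of -5.61 ± 0.14 (adjusted p = 2.18e-13). HBEGF, a membrane-bound ligand of EGFR, read 387, 404 and 415 in PC9 DMSO and 106, 134 and 139.5 in PC9 erlotinib. The HCC827 arrays read 151, 159.6 and 159 in DMSO and 732, 830.2 and 728 in erlotinib. No arrays overlapped within either line, and the difference was -3.84 ± 0.13 (adjusted p = 4.27e-12).

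PAPPA, a protease that frees insulin-like growth factors from a binding protein, fell in PC9 from 111, 144 and 124 to 41.2, 31.7 and 42.3. It rose in HCC827 from 5.5, 6.4 and 5.6 to 66.1, 57.4 and 56.3, and the difference was -3.83 ± 0.17 (adjusted p = 8.33e-11). SH3RF3, a scaffold protein with a RING domain, fell in PC9 from 343, 291 and 296 to 18.2, 28.5 and 41. Its HCC827 signals rose from 1.9, 4.8 and 4 to 18.5, 25.2 and 14.4, which put both lines at a similar level in the drug. The sodium leak channel NALCN and PXYLP1, a phosphatase of proteoglycan synthesis, behaved alike in direction, with differences of -2.34 ± 0.14 and -3.62 ± 0.14. ARNT2, a transcription factor of the bHLH-PAS family, and the adaptor GAREM2 crossed at low signals, at most 30.4, with differences of -2.71 ± 0.27 and -2.12 ± 0.24. Tested against a 1.5-fold change, GAREM2 no longer passed in HCC827, and the other 15 of these 16 genes kept their opposite changes. In all, erlotinib and DMSO arrays did not overlap in either line for 272 of the 303 genes up in PC9 and for 347 of the 405 down in PC9, against 43.3% of all genes (64.9% of all genes did not overlap in PC9 and 62.1% in HCC827). The opposite genes were sorted by calls in both lines on these same arrays, which favours arrays without overlap. The contrast with all genes is therefore no separate evidence for the opposite changes. Changes of at least 2-fold in both lines were seen in 10 of the 303 genes and 9 of the 405.

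**Figure D2:**
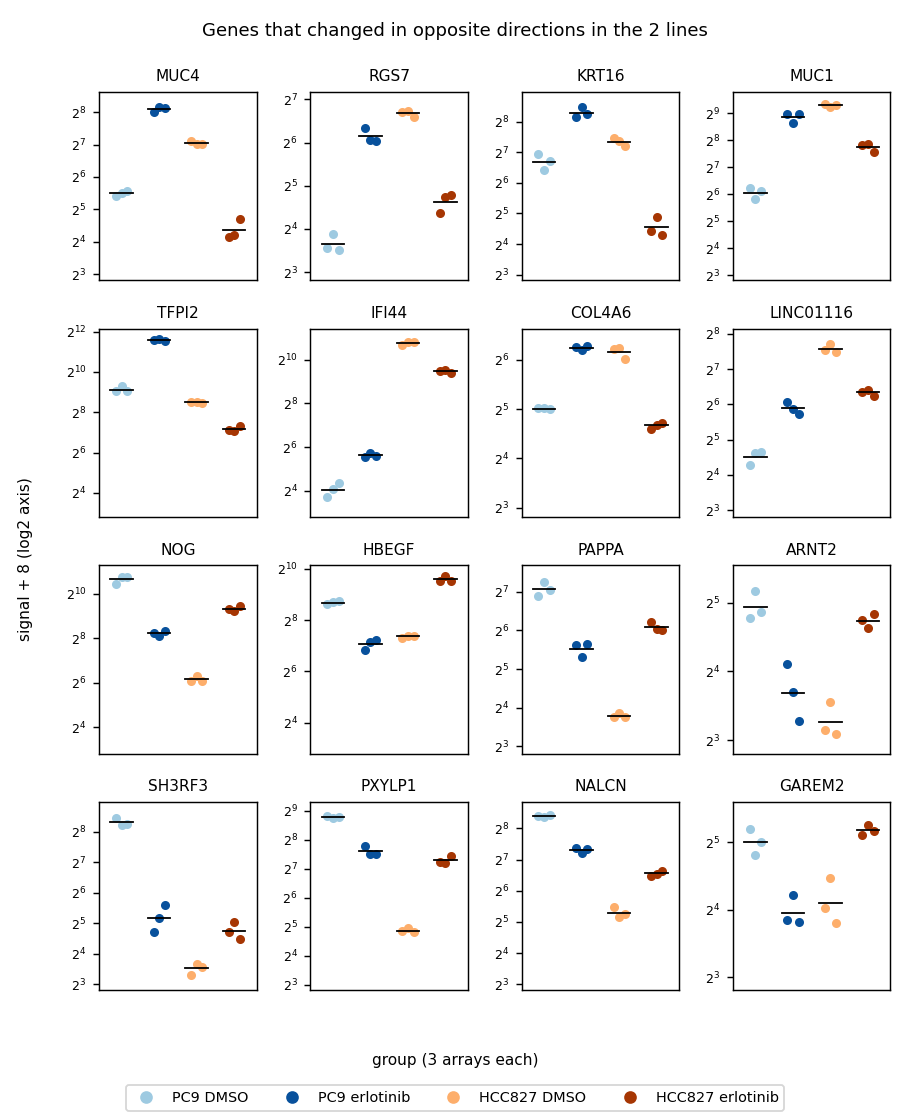
Signal plus 8 on a log2 axis for the 16 opposite genes, 1 panel per gene, with 1 point per array, groups in the order of the legend and a bar at the mean of the log2 values. In the upper 8 panels PC9 rises and HCC827 falls with erlotinib, and in the lower 8 the reverse holds, with no overlap between the treatments of a line.

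Genes called in PC9 alone included secreted factors, some of which came up from background. PPBP, a chemokine of platelets, read 7, 10.5 and 11.8 in PC9 DMSO and 831, 888 and 732 in PC9 erlotinib. HCC827 stayed between 1.7 and 4.4 on all 6 arrays. The PC9 change was 5.54 ± 0.13, that of HCC827 was -0.08 ± 0.13 (adjusted p = 0.619), and the difference was 5.63 ± 0.19 (adjusted p = 3.84e-12). IGFBP5, which binds insulin-like growth factors, rose in PC9 from 46.3, 55.2 and 43.5 to 1289, 1237 and 1341. Its HCC827 signals were all at or under 5.1. SULT1E1, the estrogen sulfotransferase, rose in PC9 from 4.3, 4.7 and 12.6 to 387, 310.2 and 334. It was measurable in HCC827, at 41.4, 40.9 and 49.2 in DMSO and 53.5, 53.4 and 49.5 in erlotinib, so a response there of the size seen in PC9 would have shown. The secretory protein CRISP3, the noncoding RNA LINC01133 and the GABA receptor subunit GABRP rose by 4.70 ± 0.12, 3.99 ± 0.14 and 3.74 ± 0.13 in PC9, from signals of at most 8.5 to at least 114, with HCC827 at most at 7.9. IGFBP5 was called in HCC827 too when HCC827 erlotinib replicate 1 was left out, and GABRP with a constant of 1.

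The falls in PC9 alone had a cleaner contrast for the genes that HCC827 expressed. GAL, the neuropeptide galanin, read 745, 624 and 602 in PC9 DMSO and 45.5, 78.4 and 70.6 in PC9 erlotinib. HCC827 read 576, 576 and 451 in DMSO and 492, 525 and 556 in erlotinib. Both lines began at a comparable level, all PC9 erlotinib arrays were far below it, and the HCC827 arrays of the treatments overlapped. The change was -3.21 ± 0.15 in PC9 and -0.02 ± 0.15 in HCC827, a difference of -3.20 ± 0.21 (adjusted p = 4.64e-09). SLC45A3, a sugar transporter of the plasma membrane, fell in PC9 from 370.3, 332 and 354 to 40.7, 41.1 and 49.3. In HCC827 it read 79, 86 and 74 in DMSO and 80.7, 84.7 and 84.9 in erlotinib, with a difference between the changes of -2.87 ± 0.13 (adjusted p = 1.18e-10). The decoy receptor IL13RA2, the AMPA receptor auxiliary protein CNIH3, the noncoding RNA LINC01127 and the peptide transporter SLC15A1 had changes of -2.95 ± 0.13, -2.88 ± 0.16, -2.76 ± 0.13 and -2.71 ± 0.14 in PC9. These 4 were at or under a signal of 7.8 on every HCC827 array, so no fall could be seen there.

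The largest rises called in HCC827 alone were of genes that PC9 kept near background. CDK15, a kinase of the cyclin-dependent family, read 3, 6.6 and 4.7 in HCC827 DMSO and 129, 136 and 128 in HCC827 erlotinib. Its PC9 signals were at most 4.0. THBS2, a matricellular thrombospondin, rose in HCC827 from 42.7, 35.7 and 48.1 to 308, 299 and 309.5. PC9 read 2.4, 10.2 and 4.4 in DMSO and 5.4, 3 and 6.9 in erlotinib, with overlapping arrays. The difference was -3.25 ± 0.21 for CDK15 (adjusted p = 4.03e-09) and -2.68 ± 0.25 for THBS2 (adjusted p = 2.6e-07). Leaving out PC9 DMSO replicate 2 gave CDK15 a called rise in PC9 as well. The skeletal muscle actin ACTA1, the folate enzyme ALDH1L2, the ephrin ligand EFNB3 and the matrix protein SRPX rose by 2.56 ± 0.12, 2.52 ± 0.12, 2.47 ± 0.13 and 2.68 ± 0.16 in HCC827 and were at or under a signal of 5.2 in PC9.

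Falls in HCC827 alone were ranked among genes whose PC9 interval lay within 1.5-fold and whose HCC827 arrays did not overlap. The 6 largest of these were of genes that PC9 did not express above background. BCL2L15, a member of the BCL2 family, read 438, 444 and 452 in HCC827 DMSO and 72.8, 70.1 and 57 in HCC827 erlotinib. PC9 signals were between 3.2 and 11.6. ACMSD, an enzyme of tryptophan breakdown, fell in HCC827 from 79.4, 65.3 and 67.7 to 4.1, 2.5 and 1.9, with PC9 at or under 2.7. The lipid transporter ABCA12, the basement membrane protein TINAG, the cation channel TRPC6 and the antisense RNA SLC67A1-AS had changes of -2.27 ± 0.15, -2.79 ± 0.13, -2.44 ± 0.13 and -2.63 ± 0.14 in HCC827. For these 6 genes the unequal change is a fall against a level that had no room to fall. BCL2L15 was called in PC9 as well under quantile normalization, median centring, the mean of all probe sets and without PC9 erlotinib replicate 3, and ABCA12 without PC9 DMSO replicate 1.

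**Figure D3:**
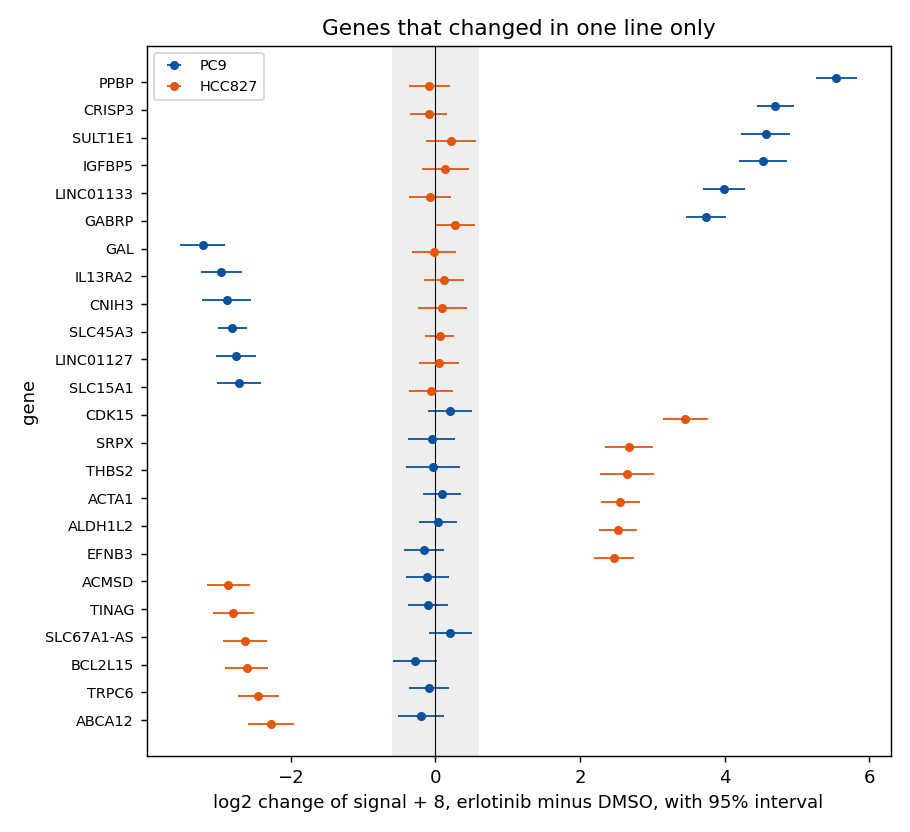
Log2 change with its 95% interval in PC9 (blue) and HCC827 (orange) for 24 genes called in 1 line. The grey band spans 1.5-fold either way. Genes were eligible if the arrays of the called line did not overlap and the interval of the other line lay inside the band. The 24 are the largest changes of each line and direction among these, so the interval of the other line lies inside the band by choice.

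Where both lines moved the same way, PC9 gave most of the larger changes. OLR1, a receptor of oxidised lipoprotein, read 6.6, 13.6 and 12.7 in PC9 DMSO and 1279.9, 1389 and 1379.6 in PC9 erlotinib. HCC827 went from 1.4, 1.8 and 2.3 to 12.4, 11 and 7.9, which is below the filter at its highest. PTGS2, the inducible cyclooxygenase of prostaglandin synthesis, rose in PC9 from 4.5, 7.8 and 7.1 to 493, 438 and 426. The HCC827 arrays began higher, at 112, 117 and 131, and reached 153, 192 and 129. The HCC827 arrays of the treatments overlapped. The lines differed by 4.63 ± 0.18 (adjusted p = 1.81e-11), and the HCC827 rise of 0.36 ± 0.13 was small beside it. SELENOP, a secreted selenium carrier, rose by 4.93 ± 0.18 in PC9 and by 0.90 ± 0.18 in HCC827.

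IL1RL1, the receptor of interleukin 33, had the largest difference among the shared falls that were deeper in PC9. It read 897, 789 and 777 in PC9 DMSO and 29.5, 29.8 and 38.8 in PC9 erlotinib. HCC827 read 14.7, 8.7 and 16 in DMSO, then 1.2, 5.8 and 2.7 in erlotinib, so its own fall was from near background. IL1R2, a decoy receptor of interleukin 1, could be compared better. Its PC9 signals fell from 141, 144 and 131 to 8, 10.7 and 4 and its HCC827 signals from 60.1, 65.1 and 60.5 to 37.3, 36.9 and 26.2, a difference of -2.50 ± 0.21 (adjusted p = 1.02e-07).

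HCC827 had the larger rise of EDN2, an endothelin, which read 16.8, 19.7 and 17.7 in DMSO and 403, 454 and 418 in erlotinib. PC9 read 8.2, 4.1 and 4.3 in DMSO, then 10.8, 12.3 and 12.8 in erlotinib, still under the filter. ACKR3, a scavenging receptor of the chemokine CXCL12, came up in HCC827 from 3.5, 2.3 and 0.9 to 379.7, 339.6 and 329. PC9 held it at 346, 415 and 382 in DMSO and 1708, 1672 and 1750 in erlotinib, so HCC827 with the drug reached about the level of PC9 without it. The difference of -2.98 ± 0.14 (adjusted p = 1.18e-10) was on 1 probe set, and another probe set of ACKR3 was called in the other direction. PXDN, a matrix peroxidase, rose in HCC827 from 1.2, 1.6 and 0.4 to 62.5, 68.4 and 64 and in PC9 from 964, 893 and 953 to 1097, 1176 and 1119. The natriuretic peptide NPPB rose by 4.01 ± 0.20 in HCC827 and 1.20 ± 0.20 in PC9.

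S100P, a calcium-binding protein of many carcinomas, fell in HCC827 from 739, 718 and 678 to 28.3, 35 and 31.4. PC9 kept it bright, at 2386, 2295 and 2689.8 in DMSO and 2042, 1989.8 and 2133 in erlotinib. The HCC827 arrays with erlotinib were far below all others, and the difference was 3.93 ± 0.11 (adjusted p = 3.58e-13). AKR1B10, an aldo-keto reductase, behaved alike in direction, from 244, 228 and 216 to 35.9, 39.1 and 35.6 in HCC827 and from 3963, 3816 and 3911 to 2899, 3470.1 and 3039.6 in PC9.

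For most type I interferon response genes the PC9 change was the more positive, with rises in PC9, falls in HCC827 or both. Many of these genes carry the interferon-stimulated response element in their promoters and encode antiviral proteins. Of 26 tested, 20 had the more positive change in PC9 and 0 the more negative in limma, where all genes gave 21.2% and 23.9%; the median difference was 1.25 against -0.02 for all genes. At an unadjusted p under 0.05, 0 had the more negative change, and quantile normalization called 1. In PC9 14 rose and 2 fell, where 36.3% and 28.3% of all genes did, and in HCC827 2 rose and 16 fell, where 32.2% and 19.5% did. The classes were 7 opposite, 7 that fell in HCC827 alone, 5 that rose in PC9 alone and 1 unequal. With the actin covariate 20 were called as more positive, but 4 were opposite and 11 fell in HCC827, and without HCC827 erlotinib replicates 2 and 3 the numbers were 20, 5 and 12. The list was written with earlier results of these arrays known. Its median signal in PC9 DMSO, 11.2, was under the filter, so many members had no room to fall in PC9. For these members a fall in PC9 to match one in HCC827 could not have been seen, as with IFI44L below. How far the count of 20 and the absence of more negative changes depend on the low starting level in PC9 was not tested.

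The starting levels of the lines lay far apart. The median signal of the 26 genes was 11.2 in PC9 DMSO and 25.3 in PC9 erlotinib, and 275 and 208 in HCC827. IFI44, an interferon-induced protein of the cytoplasm, read 5, 9.2 and 12.3 in PC9 DMSO and 38.1, 45.1 and 40.9 in PC9 erlotinib. HCC827 read 1605, 1752 and 1754 in DMSO and 706, 734 and 659 in erlotinib. The gap between the lines narrowed and stayed wide, and no arrays overlapped within a line. The difference of the changes was 2.85 ± 0.18 (adjusted p = 3.26e-09). MX1, a GTPase that blocks viral replication, rose in PC9 from 6.7, 6.2 and 10.7 to 28, 26.1 and 28.6 and fell in HCC827 from 274, 275 and 238 to 171, 155 and 134. IFI6, a mitochondrial interferon-induced protein, had the next largest difference of 2.46 ± 0.29 (adjusted p = 4.54e-06), from 1.2, 2.1 and 1.3 to 16.3, 22.2 and 8.5 in PC9 and from 130.4, 110.1 and 167 to 70.9, 41.4 and 53.3 in HCC827. IFI44L fell in HCC827 from 979, 1008 and 1049 to 425, 346 and 300.3, while PC9 read at most 10.6. IFIT5, ISG20, IFI35, RIGI, XAF1 and USP18 had no called difference, and USP18, a brake on the interferon receptor, fell in both lines, by 0.91 in PC9 and by 0.66 in HCC827.

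Of the 7 interferon genes whose changes crossed, the promoters of IFI44, IFI6, ISG15 and OAS3 are shown, with that of IFI27, which fell in HCC827 alone, because they hold the element by which these genes are known. MX1, OAS1 and IRF9 also crossed, and no match of its core was found in the same window before the first start listed for them. Capitals mark exact matches of its core, GAAA, any 2 bases and GAAA again, on either strand, including overlapping ones; on the other strand a match reads TTTC, 2 bases, TTTC. The stretches are 80 bases that end before the RefSeq gene start (GRCh38.p14), written on the gene's strand.
IFI44 (chr1:78649709-78649788, + strand): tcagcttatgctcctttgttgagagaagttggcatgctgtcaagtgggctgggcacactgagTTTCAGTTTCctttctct
IFI6 (chr1:27672241-27672320, - strand): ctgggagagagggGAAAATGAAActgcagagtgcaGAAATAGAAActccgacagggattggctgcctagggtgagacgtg
ISG15 (chr1:1013355-1013434, + strand): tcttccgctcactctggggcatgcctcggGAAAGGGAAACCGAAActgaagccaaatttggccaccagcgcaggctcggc
OAS3 (chr12:112938394-112938473, + strand): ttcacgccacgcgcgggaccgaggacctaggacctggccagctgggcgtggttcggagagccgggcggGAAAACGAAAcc
IFI27 (chr14:94110606-94110685, + strand): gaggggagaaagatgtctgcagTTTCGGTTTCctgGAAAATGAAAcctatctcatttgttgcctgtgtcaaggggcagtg
In the 250 bases before the start, the motif matched in 12 of the 20 listed genes with a promoter sequence (60%), against 239 of 10692 tested genes (2.24%). Of the 303 opposite genes that rose in PC9, 249 had a sequence and 18 of these held it (7.23%), against 8 of 316 (2.53%) of those that fell in PC9. Only 4 of the 18 are on the interferon list; without the list, 14 of 242 held it (5.79%). The same window held the NF-kB motif (GGG, any 5 bases, CC) in 69.0% of tested genes, the TEAD motif CATTCC in 9.49% and the AP-1 motif TGANTCA in 4.08%. Matches are descriptions of the letters and not of binding.

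**Figure D4:**
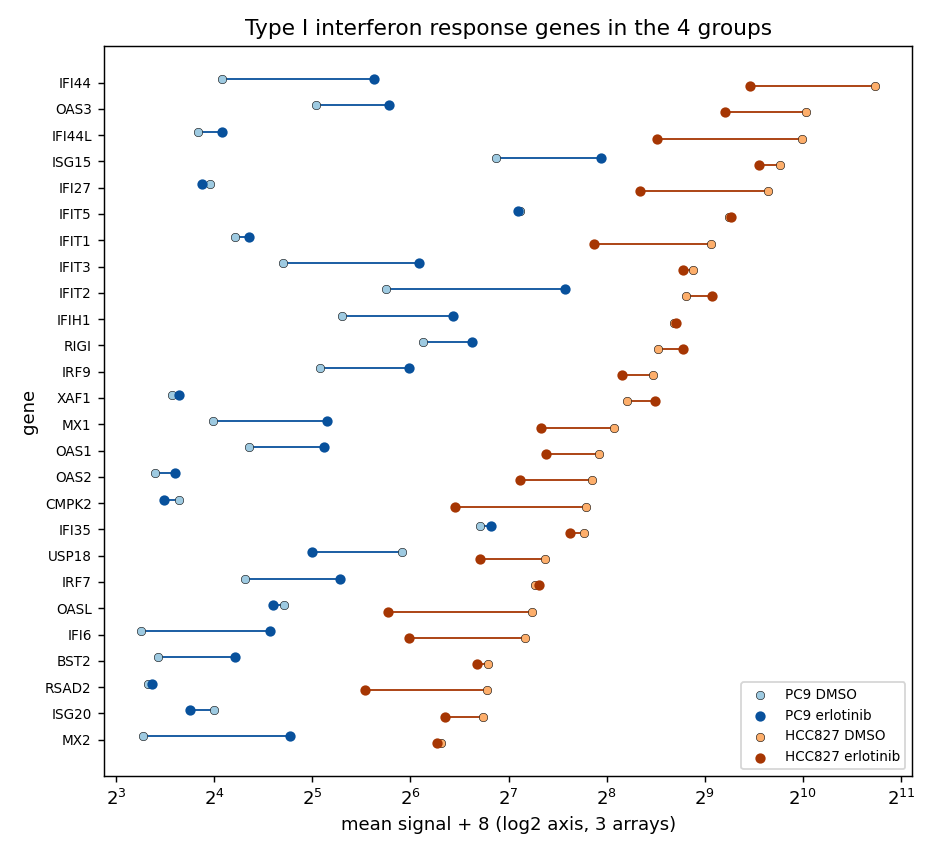
Mean signal plus 8 (log2 axis, 3 arrays per group) of the 26 type I interferon genes tested, with a line from DMSO (light) to erlotinib (dark) in PC9 (blue) and HCC827 (orange). HCC827 lies to the right of PC9 for all 26 genes in DMSO, and for 7 genes the pair moves toward each other with both changes called.

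Most interferon-gamma and antigen presentation genes had the more positive change in PC9. Interferon-gamma response genes had 10 of 13 tested with the more positive change in PC9 and 2 with the more negative (9 and 3 with either other scaling), with a median difference of 0.94. GBP1, a GTPase that attacks vacuoles of pathogens, read 2.8, 4.7 and 2.5 in PC9 DMSO and 365, 351 and 389.5 in PC9 erlotinib. HCC827 read 417, 426 and 414 in DMSO and 677, 628 and 684 in erlotinib. PC9 thus came from background to near the untreated level of HCC827, with a difference of 4.41 ± 0.12 (adjusted p = 3.58e-13). PSMB9, a catalytic subunit of the immunoproteasome, rose from 15.8, 12.3 and 14.8 to 208, 211 and 204 in PC9 and from 255, 261 and 244 to 312, 323 and 310 in HCC827. The adhesion molecule ICAM1 rose by 3.75 ± 0.09 in PC9 and 0.64 ± 0.09 in HCC827. The chemokine CXCL10 went against most of the list. It went from 0.4, 2.8 and 2.1 to 7.8, 7.4 and 10.7 in PC9 and from 16.4, 12.4 and 16.5 to 264, 249 and 239.6 in HCC827, a difference of -2.72 ± 0.18 (adjusted p = 8.04e-09), and CXCL11 had the same direction.

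Of 17 antigen presentation genes 15 had the more positive change in PC9 and 0 the more negative in limma (14 and 1 with quantile normalization, 13 and 0 with median centring), with 0 more negative at an unadjusted p under 0.05 and a median difference of 0.70. In PC9 13 rose and 1 fell (36.3% and 28.3% of all genes), and in HCC827 7 rose and 2 fell (32.2% and 19.5%). HLA-DMA, which loads peptides onto class II molecules, rose by 2.21 ± 0.11 in PC9 and 1.02 ± 0.11 in HCC827, a difference of 1.19 ± 0.15. The class I genes HLA-F and HLA-G rose in PC9 alone, by 1.25 ± 0.12 and 1.42 ± 0.13. Class I genes are near-identical in long stretches, so their probe sets may read each other and single members are uncertain. The class II genes HLA-DRA and CD74 fell in HCC827 alone, at low signals.

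Most NF-kB target genes with a called difference had the more positive change in PC9, and CCL2 did the reverse. Of 21 tested, 11 had the more positive change in PC9 and 3 the more negative, and quantile normalization made this 11 and 5; the median difference was 0.76. CCL2, the chemokine of monocytes, read 12.1, 16.3 and 16.2 in HCC827 DMSO and 607, 568 and 541 in HCC827 erlotinib. PC9 read 3, 16.6 and 5.3 in DMSO and 5.4, 2.5 and 5.1 in erlotinib, with overlapping arrays near background. The difference was -4.99 ± 0.30 (adjusted p = 2.43e-09). The neutrophil chemokine CXCL8 rose in PC9 from 59, 77 and 63.3 to 544, 774 and 1161 and in HCC827 from 397, 462 and 438 to 886, 812 and 793. CXCL1 moved alike, by 3.63 ± 0.17 in PC9 and 1.19 ± 0.17 in HCC827.

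Most ERK pathway output genes fell in both lines, and most called differences were toward a larger fall in PC9. They include phosphatases and Sprouty proteins that damp the cascade and ETS factors that carry it out. Of 21 tested, 12 had the more negative change in PC9 and 2 the more positive (12 and 1 with median centring), and the median difference was -0.58. DUSP6, the phosphatase of ERK, read 1046, 1547 and 1480.3 in PC9 DMSO and 68.9, 60.5 and 74.9 in PC9 erlotinib. HCC827 read 1219.5, 1205 and 1330 in DMSO and 335, 414 and 348 in erlotinib. The DMSO levels were alike, and the erlotinib arrays of HCC827 all lay above those of PC9, with a difference of -2.39 ± 0.17 (adjusted p = 1.96e-08). SPRY4 fell in PC9 from 433, 423 and 379.9 to 12.2, 15 and 12.1 and in HCC827 from 78.7, 70.4 and 78.2 to 18.5, 23.1 and 22.7. The ETS factors ETV4 and ETV5 had differences of -1.81 ± 0.21 and -1.41 ± 0.14, and SPRY1 one of -1.96 ± 0.13. MYC, the growth factor-driven transcription factor, was the list's 1 opposite gene, with a change of -0.66 in PC9 and 0.46 in HCC827. The cyclin CCND1 went the other way, with the larger fall in HCC827 (difference 0.32 ± 0.09, adjusted p = 0.00696), which missed the threshold with median centring, at 0.25, and in both fits that bear on the actin ratio.

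EGFR ligands and receptors split. Of 6 ligands tested, 2 had the more positive and 2 the more negative change in PC9, with HBEGF, described above, the largest. BTC, betacellulin, had a difference of 0.74 ± 0.15 (adjusted p = 0.000708), from 40.9, 53.5 and 44.5 to 73.5, 61.7 and 73 in PC9 and from 237, 217 and 249 to 205, 185 and 206 in HCC827. EREG and TGFA differed by -0.54 ± 0.17 and 0.41 ± 0.11 and lost their calls under some alternatives, EREG with the actin covariate, with the mean of all probe sets and without PC9 erlotinib replicate 1 (-0.45) or HCC827 erlotinib replicate 3 (-0.48), and both without HCC827 erlotinib replicates 2 and 3. Among 16 receptor tyrosine kinases and adaptors 3 had the more positive and 9 the more negative change in PC9, with a median difference of -0.39; both other scalings kept that sign. EGFR itself read 1207, 1175 and 1203 in PC9 DMSO and 817, 906 and 842 in PC9 erlotinib. HCC827 read 2329.9, 2282 and 2200.3 in DMSO and 2118, 2381 and 2309 in erlotinib, with overlapping arrays. The difference of -0.48 ± 0.08 (adjusted p = 0.000117) was -0.19 and not called when the probe sets of EGFR were averaged.

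IRS1, the adaptor of the insulin receptor, fell by 1.84 ± 0.09 in PC9 and by 0.35 ± 0.09 in HCC827, a difference of -1.49 ± 0.12 (adjusted p = 7.2e-08). GAB1, an adaptor downstream of EGFR and MET, rose in PC9 alone, from 39.5, 46 and 51.9 to 139, 106 and 129, with HCC827 at 147, 134 and 131 in DMSO, then 155, 144 and 136 in erlotinib. FGFR3 rose in both, with a difference of 0.81 ± 0.14, and ERBB3 did so with a difference of 0.42 ± 0.09. AXL, a receptor linked to drug tolerance, went from 1492, 1437 and 1424 to 1460.5, 1437 and 1470 in PC9 and from 255, 219.9 and 207 to 359, 362 and 348 in HCC827. It rose in HCC827 alone, with a difference of -0.63 ± 0.10 (adjusted p = 6.76e-05), and stayed far below its PC9 level. MET had a difference of -0.34 ± 0.06 on its brightest probe set, which turned to 0.58 with the mean of all probe sets, so its direction is unsettled.

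Most proliferation genes fell in both lines, and where the lines differed on the brightest probe set PC9 fell further. Among 24 DNA replication genes 15 (62.5%) had the more negative change in PC9 and 0 the more positive in limma, where all genes gave 23.9% and 21.2%. At an unadjusted p under 0.05, 0 were more positive. The numbers were 13 and 0 with quantile normalization and 18 and 0 with median centring. They were 10 and 0 both with the actin covariate and with the mean of all probe sets. The median difference was -0.33, and -0.31 without HCC827 erlotinib replicates 2 and 3. GINS3 of the replicative helicase fell by 0.98 ± 0.08 in PC9 and by 0.37 ± 0.08 in HCC827. The helicase subunit MCM6 fell by 0.69 ± 0.06 and by 0.18 ± 0.06. Mitosis genes were closer, with 8 of 24 (33.3%) more negative and 0 more positive, where all genes gave 23.9% and 21.2%. A smaller share of them differed at all than of all genes, 33.3% against 45.2%. The numbers were 9 and 0 with quantile normalization, 11 and 0 with median centring and 8 and 0 with the actin covariate. At an unadjusted p under 0.05, 0 were more positive. The median difference was -0.20, and -0.12 without HCC827 erlotinib replicates 2 and 3. BUB1 was among the 8, but other probe sets of it were called in the other direction, at 0.30 and 0.80. CDC20, an activator of the anaphase ligase, fell in PC9 alone, from 1059, 857 and 947 to 356, 535 and 504, while HCC827 read 1097, 1177 and 1048 in DMSO, then 865, 1056 and 1029 in erlotinib. MKI67, the proliferation marker, fell in both lines, with a difference of -0.02 ± 0.13 and a 95% interval from -0.29 to 0.26 (adjusted p = 0.931).

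Most ribosome biogenesis genes fell in PC9, and fewer did in HCC827. Of 15 genes tested, 11 had the more negative change in PC9 and 0 the more positive in limma, with 0 at an unadjusted p under 0.05, and a median difference of -0.35 (10 and 0 with quantile normalization, 12 and 0 with median centring). In PC9 13 fell and 0 rose, beside 28.3% and 36.3% of all genes, and in HCC827 5 fell and 1 rose, beside 19.5% and 32.2%. POLR1B, part of the polymerase that transcribes ribosomal RNA genes, fell in PC9 from 986, 1010 and 1037 to 552, 503 and 528 and in HCC827 from 954, 960.4 and 919 to 849, 855 and 870.1. Every PC9 erlotinib array was lower than all others, and the difference was -0.79 ± 0.08 (adjusted p = 5.34e-07). NOP58, a core protein of nucleolar ribonucleoproteins, and RRP9 fell in PC9 alone, with differences of -0.71 ± 0.11 and -0.82 ± 0.17. Glycolysis and hypoxia genes had 11 of 23 more negative and 4 more positive in PC9 (9 and 4 with quantile normalization, 12 and 3 with median centring; median -0.21), but 5 more negative with the actin covariate. The kinase PDK1, which restrains pyruvate dehydrogenase, fell by 1.34 ± 0.10 in PC9 and by 0.37 ± 0.10 in HCC827, whereas the glucose transporter SLC2A3 rose in PC9 alone, from 461, 540.5 and 564 to 1462, 1324 and 1375, and was under the filter in HCC827.

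Contractile, YAP and TGF-beta genes tended to larger rises in PC9. The contractile list had 7 of 11 more positive and 0 more negative in limma (7 and 1 with median centring), with 1 more negative at an unadjusted p under 0.05 and a median difference of 0.72. MYL9, the regulatory light chain of smooth muscle myosin, rose in PC9 from 14, 23.4 and 5.6 to 739.9, 914 and 858 and in HCC827 from 138, 139 and 132 to 657, 664 and 622. The HCC827 DMSO arrays were the brighter at the start, and the lines reached similar levels. ACTG2, a smooth muscle actin, rose in PC9 alone, by 1.82 ± 0.13. MYLK had a difference of 2.20 ± 0.51, with PC9 DMSO replicate 2 at 126 against 24.7 and 22.6 on the other arrays of its group. Of 18 YAP and TAZ targets 12 were more positive in PC9 and 2 more negative (11 and 2 with quantile normalization, 10 and 2 with median centring; median 0.42). CCN2, a secreted matricellular protein, rose from 5.8, 20.1 and 11.1 to 241, 231 and 132 in PC9 and from 165, 268 and 218 to 551, 595 and 659 in HCC827. CCDC80 rose by 2.89 ± 0.07 and 1.71 ± 0.07, and AJUBA and the phosphatase PTPN14 rose in PC9 alone.

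TGF-beta targets had 10 of 17 more positive in PC9 and 3 more negative (8 and 2 with quantile normalization, 9 and 4 with median centring; median 0.49). BAMBI, a decoy receptor that damps TGF-beta signals, crossed, from 177, 158 and 154 to 674, 583 and 568 in PC9 and from 1081, 1194 and 1120.2 to 622, 693 and 644 in HCC827. No arrays overlapped within a line, and the difference was 2.64 ± 0.11 (adjusted p = 3.77e-11). ID3, an inhibitor of helix-loop-helix factors, rose by 2.83 ± 0.09 in PC9 and 1.05 ± 0.09 in HCC827. INHBA, the activin subunit, was the counterexample, with rises of 1.56 ± 0.07 in PC9 and 3.21 ± 0.07 in HCC827, and another of its probe sets was called in the other direction. Mesenchymal genes had 6 more positive and 6 more negative of 18. TNC, a glycoprotein of remodelled matrix, rose slightly in PC9 from 62.5, 69.2 and 64.1 to 81.1, 87.2 and 82.8 and fell in HCC827 from 1506, 1548 and 1580.5 to 426, 419 and 417, a difference of 2.18 ± 0.10 (adjusted p = 7.8e-11). POSTN rose in PC9 alone by 2.79 ± 0.18. CDH2, SPARC and, from the FOXO targets, SESN3 were called in HCC827 alone, but PC9 DMSO replicate 2 was the highest array of its group in each. The SPARC difference of -2.08 ± 0.74 (adjusted p = 0.0319) was -1.05 without that array, and it missed the threshold without any 1 of the HCC827 arrays and without PC9 erlotinib replicate 2 or 3. VIM had a difference of -0.30 ± 0.38 (adjusted p = 0.546), which turned to 0.21 without PC9 DMSO replicate 2.

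Cornified envelope genes, which build the outer layer of stratified epithelium, had 3 of 14 members up and 8 down in HCC827 (32.2% and 19.5% of all genes) and 6 up and 6 down in PC9 (36.3% and 28.3%). They had 7 of 14 more positive in PC9 and 3 more negative, as with both other scalings, and a median difference of 0.84. Their median change was 0.04 in PC9 (-0.10 with median centring) and -0.88 in HCC827. SPRR1B, a precursor of the envelope, fell in HCC827 from 504, 429.7 and 464 to 12.4, 13 and 11 and in PC9 from 50.1, 50.8 and 44 to 8.9, 9.7 and 9.6. The drug brought both lines near background, to signals of at most 13, so PC9 with its lower DMSO level had less room to fall. The SPRR1B difference was 2.86 ± 0.14 (adjusted p = 2.45e-10, limma), and its close relative SPRR1A had one of 2.58 ± 0.17. Among the exceptions were S100A8 and S100A9, calcium-binding proteins that pair as calprotectin. S100A8 fell in PC9 from 379, 316 and 367 to 35.5, 38 and 32.9, and HCC827 had signals of at most 4.8.

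Lung lineage genes moved line by line. NKX2-1, the master factor of lung epithelium, read 11.7, 20.5 and 10.2 in PC9 DMSO and 55.1, 38 and 48.9 in PC9 erlotinib. HCC827 read 2209.7, 1923 and 2130.2 in DMSO and 2062, 1988 and 1753 in erlotinib, with overlapping arrays. On this probe set it rose in PC9 alone, with a difference of 1.45 ± 0.20 (adjusted p = 2.84e-05, limma), and stayed far below HCC827. Another probe set of NKX2-1 did not show the rise. Its changes were -0.48 in PC9 and -0.35 in HCC827, and the difference of -0.13 ± 0.28 was not called. NAPSA, the aspartic protease of alveolar cells, fell in HCC827 from 253, 234 and 269.9 to 58, 61.6 and 59.6 and rose in PC9 from 3.5, 3.7 and 4.6 to 6.9, 8.8 and 14.3, with 2 of 3 PC9 erlotinib arrays still under the filter. KRT5, the basal keratin, fell in PC9 alone, from 924, 759.7 and 841 to 271, 314 and 297. CDH1, the epithelial cadherin, had a difference of 0.07 ± 0.09 with a 95% interval from -0.11 to 0.25 (adjusted p = 0.539), which was -0.0024 with median centring and was called at 0.19 with quantile normalization. Another probe set of CDH1 was called in the same direction, at 1.20 ± 0.26 (adjusted p = 0.00164), so its difference is not settled by these arrays.

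**Figure D5:**
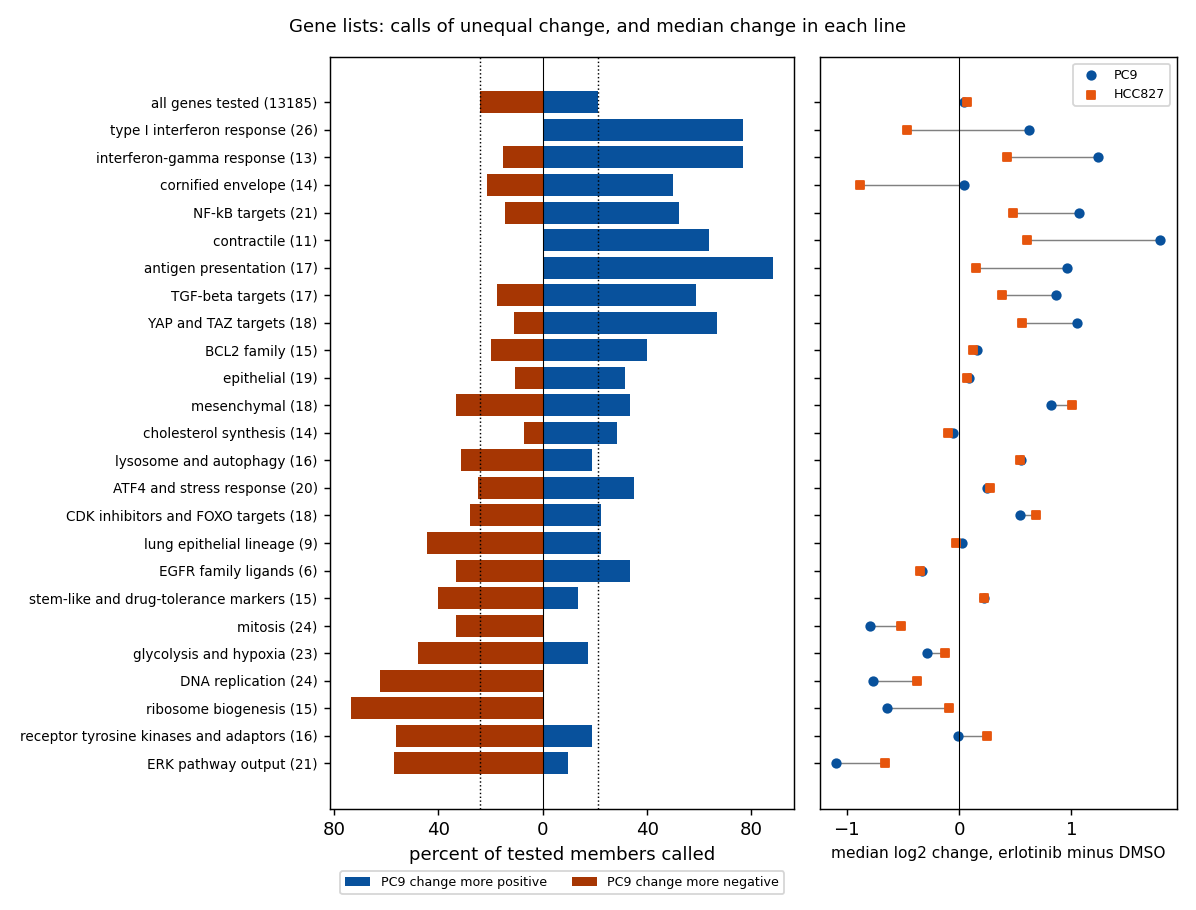
Left, the percent of tested members of each list (number in brackets) called with the more positive (blue) or more negative (brown-red) change in PC9, with dotted lines at the values for all genes; right, the median log2 change of the list in each line. Type I interferon genes have medians on either side of 0, and ribosome biogenesis and ERK output genes lie further below 0 in PC9 than in HCC827.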

How the data were processed

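RNA of 12 samples was extracted with RNeasy Plus and amplified with NuGEN Ovation before hybridisation to HG-U133 Plus 2 arrays, per the labels. The authors deposited 1 table of linear intensity values made with MAS5 and scaled to a common target, per the submitters' processing notes and the values; the MAS5 version is not given in the sources used here. MAS5 gives values near 0 for dim probe sets and keeps no detection call in this table, so dim values carry large log errors, and the amplification from the 3' end makes signals depend on RNA quality.

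Of 54675 probe sets 41091 had 1 gene symbol, 1801 had several, 11721 had none and 62 were controls. Each of 19775 genes was represented by its brightest probe set (by mean log2 signal), and 13185 genes with at least 1 group mean at or over 13, the table's median, were tested. Group means of log2(signal + 8) were fitted with limma 3.58.1 in R 4.3.3, with an intensity trend, and the 2 line changes and their difference counted as called below 0.05 after Benjamini-Hochberg adjustment. Changes are on that log2 scale, which understates dim genes; values after ± are standard errors with 3 arrays per group. Genes were named by rank of the difference within each class, by the 4 largest called differences in each of 24 lists (455 genes, 399 tested), or from a fixed set, 151 in all. The members and lists were chosen with earlier results of these data known. Genes said to have risen or fallen passed the test in that line. Alternatives changed the constant, scaling, filter, probe set rule, variance model, replicate block, actin covariate or arrays used. The procedure was tested on simulated data. Promoter sequences came from RefSeq (GRCh38.p14) and matched 10692 tested genes, with the first start listed for each.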

Additional observations from a re-analysis of the deposited data

Results flagged for a closer look

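The results listed here concern differences between the effects of erlotinib in the 2 lines, each by limma's test of the difference itself. The change differed for 5954 genes, and 708 of them were called in opposite directions. The 16 genes with the largest crossings, ranked by the smaller of their changes, had these differences between the PC9 and the HCC827 change on the log2 scale. Those up in PC9 and down in HCC827 were MUC4 at 5.29, RGS7 at 4.55, KRT16 at 4.42, MUC1 at 4.35, TFPI2 at 3.77, IFI44 at 2.85, COL4A6 at 2.72 and LINC01116 at 2.60. Those down in PC9 and up in HCC827 were NOG at -5.61, SH3RF3 at -4.37, HBEGF at -3.84, PAPPA at -3.83, PXYLP1 at -3.62, ARNT2 at -2.71, NALCN at -2.34 and GAREM2 at -2.12. All 3 erlotinib arrays lay on 1 side of all 3 DMSO arrays in each line for these 16 genes, which were chosen for this pattern.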

How the results depend on the processing

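The total of 5954 genes was 4196 without HCC827 erlotinib replicates 2 and 3 and 6106 with a constant of 32; a test against 1.5-fold, below, gave fewer. Leaving out 1 array at a time gave 5268 to 5943 genes in all, 2483 to 2755 with the PC9 change more positive and 2785 to 3188 more negative, 1330 to 1380 of at least 2-fold, 575 to 723 opposite, 1311 to 1702 unequal, 2091 to 2437 in PC9 alone, 924 to 1189 in HCC827 alone and 90 to 124 in neither. Differences of at least 2-fold fell to 773 with a constant of 32 and to 752 with a filter in both DMSO groups. Probe sets tested singly (26109) gave 10526 calls, 5675 more positive and 4851 more negative, 2403 of at least 2-fold, 1182 opposite, 2597 unequal, 4393 in PC9 alone, 2121 in HCC827 alone and 233 in neither. A test against 1.5-fold left 1129, with 634 more positive, 495 more negative, 27 opposite, 97 unequal, 648 in PC9 alone and 237 in HCC827 alone. The actin covariate gave 398 opposite, 844 unequal and 656 in HCC827 alone. Without HCC827 erlotinib replicates 2 and 3 there were 2092 more negative, 387 opposite, 889 unequal, 632 in HCC827 alone and 71 in neither. PC9 was the more positive in 47.0% of calls, but in 38.1% with median centring, which moved the median of all genes to -0.09, and in 43.5% with quantile normalization.

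Of the named genes, BUB1 turned to 0.20 and MET to 0.58 with the mean of all probe sets. Differences that were not called turned sign for MKI67 (0.0023 with a constant of 32, 0.078 with the mean of all probe sets, 0.0071 without HCC827 erlotinib replicates 2 and 3, and -0.10 to 0.080 without single arrays), CDKN1B (0.056 with the actin covariate), VIM (-0.56 to 0.21 without single arrays, the latter without PC9 DMSO replicate 2) and CDH1 (-0.0024 with median centring). Of all combinations of a named gene with an alternative, 3987 kept direction and call, 119 lost the call, 2 gained it and 13 turned sign; the cause was not tested. A fit with the replicate number as a replicate block called 5759 genes, 5682 of them shared, but the numbers do not pair the samples: deviations of same-numbered arrays correlated from -0.255 to 0.185, and 2 of 12 arrays correlated best with their own number. Depth cannot be set for arrays; signals under 13 carry no order.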

Other observations

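Members of other lists changed unequally in both directions, with counts that stand beside 21.2% of all genes more positive and 23.9% more negative in PC9. Among 15 BCL2 family genes 6 had the more positive and 3 the more negative change in PC9. BMF, a BH3-only activator of cell death, rose by 3.39 ± 0.10 in PC9 and 1.90 ± 0.10 in HCC827, and BCL2L11, which encodes BIM, rose by 1.00 ± 0.09 and 0.44 ± 0.09. Other probe sets of BCL2L11 gave smaller differences, from -0.17 to 0.43, and only that of 0.43 was called. BCL2 fell in PC9 alone, from 180, 192 and 191 to 94.8, 89.4 and 81.6, and was near background in HCC827. BOK rose more in HCC827, by 1.56 ± 0.10. Of 18 CDK inhibitors and FOXO targets 4 were more positive and 5 more negative in PC9. The inhibitor CDKN1C and the repressor BCL6 rose more in HCC827, with differences of -1.41 ± 0.26 and -1.79 ± 0.12, whereas CDKN2B rose more in PC9, with a difference of 1.25 ± 0.11.

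ATF4 and stress response genes had 7 of 20 more positive and 5 more negative in PC9, and their median difference changed sign with quantile normalization. Asparagine synthetase (ASNS) rose by 1.86 ± 0.08 in PC9 and 0.46 ± 0.08 in HCC827, and CHAC1, which degrades glutathione, by 1.84 ± 0.13 and 0.52 ± 0.13, while the pseudokinase TRIB3 crossed, falling by 0.76 ± 0.09 in PC9 and rising by 0.39 ± 0.09 in HCC827. Cholesterol synthesis genes had 4 of 14 more positive and 1 more negative, with a median that changed sign with median centring. INSIG1, a sterol sensor, fell by 0.83 ± 0.07 in HCC827 and by 0.19 ± 0.07 in PC9. Lysosome and autophagy genes had 3 of 16 more positive and 5 more negative, near the shares of all genes (1 and 1 with the actin covariate). The largest difference was that of GABARAPL1, which rose by 3.57 ± 0.14 and 2.30 ± 0.14. Stem-like and drug-tolerance markers had 2 of 15 more positive and 6 more negative, with CD44 falling by 0.88 ± 0.06 in PC9 and NOTCH3 by 1.04 ± 0.11.

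Among the 14 opposite genes off the interferon list whose promoter held the core of the interferon-stimulated response element, several are known from innate immunity, a description made after their values were seen. Complement factor B (CFB) had a difference of 2.82, SAMD9 one of 2.29, DDX60 one of 1.70 and IFITM1 one of 1.62.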
